A study of Drosophila melanogaster with 30 samples.

Results

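The genes described here are those that cultured ovarian somatic cells (OSCs) of *Drosophila melanogaster* transcribed strongly and that were low in the other ovarian cell lines of the study, Δ*l(3)mbt* OSCs and fGS/OSS, both of which express *ovo*. A gene was taken when its mean over the 4 wild-type OSC libraries was at least 200 normalized counts and its means in Δ*l(3)mbt* OSCs and in fGS/OSS were each at most 25% of that. This selected 47 of the 17807 genes in the tables, and 47 of the 5650 genes whose OSC mean reached 200 normalized counts. The members were selected on the levels of these 3 lines, so their values there are given as a description with no test. Tests were made only in libraries that the selection did not use.

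The study sequenced RNA from 30 libraries of 9 conditions to follow the transcription factor Ovo in germline and soma of the fly ovary. Wild-type OSCs (4 libraries), OSCs labelled as carrying the deletion Δ*l(3)mbt* (4 libraries) and the untreated line fGS/OSS (4 libraries) gave total RNA depleted of ribosomal RNA. Cells of both OSC lines were also nucleofected with *ovo-FLAG*, a plasmid in which the *act5C* promoter drives FLAG-tagged Ovo-B, or with an empty plasmid (empty vector), and polyadenylated RNA was sequenced 48 h later (3 libraries in each of 4 groups). Ovaries of *vas*-GFP flies, whose *vas* locus carries GFP, were pooled, dissociated and sorted into GFP-positive germline cells and GFP-negative somatic cells, and their total RNA was depleted of ribosomal RNA (3 libraries each). Each line is 1 established culture, fGS/OSS holds germline and somatic cells together and was grown in partly conditioned medium, and the age of the flies is not given in the sources used here.

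OSCs derive from the follicle cell lineage and grow as an epithelium-like culture without germ cells. L(3)mbt is a chromatin protein that represses transcription, and its loss in somatic cells is known for the appearance of germline transcripts. Ovo is a zinc finger transcription factor that female germ cells need. The 47 genes include parts of the muscle contractile apparatus, ion channels and receptors, secreted and cell surface proteins, metabolic enzymes and noncoding RNAs.

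The samples were checked on genes outside the list. *ovo* was at 19.4 ± 1.29 normalized counts (SD, n = 4) in OSCs, 1842 ± 195 in Δ*l(3)mbt* OSCs and 2940.5 ± 94.6 in fGS/OSS. *l(3)mbt* itself was at 5770.5 ± 774 in OSCs and 5724 ± 215 in Δ*l(3)mbt* OSCs, so its count over the whole gene does not check the deletion and the line is called by its label. The somatic regulator *tj* was at 7116 ± 1073, 10071 ± 1005 and 17155 ± 1059.8 normalized counts in the 3 lines, and all 8 markers of ovarian soma were detected in each, with *fs(1)Yb* at 3361 ± 286, 2911 ± 130.4 and 2816 ± 75.1. The 8 germline markers were uneven. *vas* was at 12.8 ± 3.53, 1152 ± 101 and 529.7 ± 37.4 in the 3 lines, *bgcn* averaged 69.4, 1395 and 36.6, and *bam* averaged 81.5, 10.0 and 2410. *nos*, *osk*, *zpg* and *otu* averaged under 15 in each line, and *orb* 20.5, 66.0 and 46.8. In GFP-positive cells all 8 were detected, from 432 for *bgcn* to 5473 for *orb*, and *vas* averaged 36.3 in GFP-negative cells. The 8 somatic markers summed to 2220 to 3433 normalized counts in GFP-positive and 17517 to 19114 in GFP-negative cells. Among them *zfh1* was higher in GFP-positive cells, at 738.5 against 458. What carry-over between the sorted populations adds to the members was not tested. Counted reads per library were 9.68 to 23.1 M in the 3 lines, 2.27 to 12.6 M in nucleofected OSCs, 1.63 to 17.0 M in nucleofected Δ*l(3)mbt* OSCs, and 3.24 to 13.1 M in sorted cells. In these bulk samples, fewer cells of a type and less RNA per cell cannot be told apart.

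The depth of the loss varied over the members. Their OSC means ran from 212 normalized counts for *Cyp12a5* to 11011 for *Sirup*, with a median of 516. In Δ*l(3)mbt* OSCs the members kept 0.116% to 22.1% of their OSC mean, with a median of 6.14%, and 30 of 47 were under 10%. In fGS/OSS they kept 0.240% to 21.6%, with a median of 2.54%, and 39 of 47 were under 10%. Over all 5650 genes with an OSC mean of at least 200, the medians were 98.6% in Δ*l(3)mbt* OSCs and 97.4% in fGS/OSS. Among those 5650 genes, 70 were at 25% or less in Δ*l(3)mbt* OSCs and 200 in fGS/OSS, so the 47 members are 67.1% of the first list and 23.5% of the second, shares that rest on the same OSC libraries. The 4 OSC libraries lay above all 8 libraries of the other lines for all 47 members, which the selection favours.

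**Figure D1:**
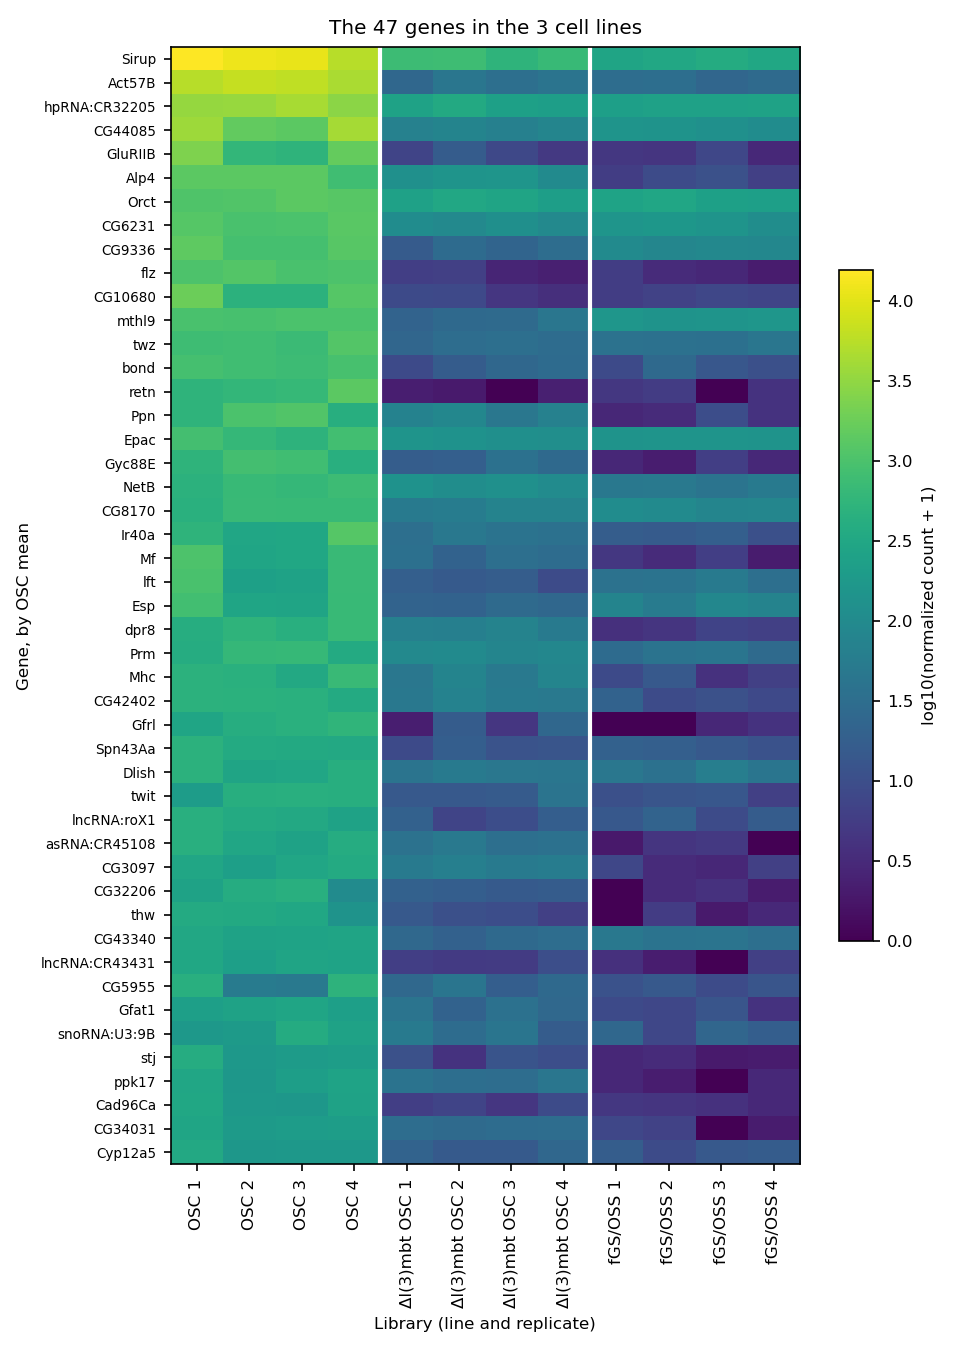
Normalized counts (log10 of the count plus 1, colour) of the 47 members, by OSC mean from top to bottom, in the 4 libraries of each of the 3 lines. The members were selected on these values, and the OSC columns also differ among themselves, as for *CG10680* and *CG5955*.

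The OSC libraries differed among themselves for many members, which is given here without a test. The ratio of the highest to the lowest OSC library had a median of 1.75 for the members and 1.27 for the 5650 genes, and it was 2 or more for 19 of the 47 members and for 4.34% of those genes. Replicates 1 and 4 were the highest OSC libraries for 21 members and replicates 2 and 3 for 8, while over the 5650 genes these shares were 20.1% and 19.8%. *CG5955*, which RefSeq names *Tdh* for threonine dehydrogenase, was at 433, 54.2, 47.5 and 513 normalized counts in the 4 OSC libraries. Replicates 2 and 3 were thus close to the 25.4, 41.6, 16.8 and 26.5 normalized counts of the Δ*l(3)mbt* libraries. *Ppn*, which encodes the extracellular matrix protein papilin, had the opposite order, with 523, 1003, 1121 and 425. The labels give no batch for these libraries. With the OSC mean taken without replicates 1 and 4, the selection gave 39 genes, all of them members, and without replicates 2 and 3 it gave 50, of which 46 were members.

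Of the members, 4 encode parts of the contractile apparatus. Muscle contracts when myosin thick filaments pull on actin thin filaments. *Act57B*, a muscle actin gene on chromosome 2R from 20944021 to 20946431, was at 5411, 6603, 6072 and 4565 normalized counts in the 4 OSC libraries. In Δ*l(3)mbt* OSCs it was at 24.1, 42.7, 32.7 and 39.7, and in fGS/OSS at 30.6, 32.2, 22.7 and 27.2. These libraries thus held under 1% of the OSC level, and the 2 lines overlapped each other. *Mhc*, the muscle myosin heavy chain gene, was at 497, 452, 343 and 699 in OSCs, 44.4, 77.0, 48.6 and 79.4 in Δ*l(3)mbt* OSCs and 7.66, 13.8, 2.97 and 5.23 in fGS/OSS, so the residual level was higher in the former line. The thick filament genes *Prm*, for paramyosin, and *Mf*, for myofilin, had OSC means of 500.3 ± 146 and 583 ± 353 (SD, n = 4). *Prm* kept 18.1% in Δ*l(3)mbt* OSCs and 6.78% in fGS/OSS, and *Mf* kept 5.00% and 0.520%. Per kilobase of exon the OSC level of *Act57B* was 3285 normalized counts, against 110 for *Mf*, 93.4 for *Prm* and 54.9 for *Mhc*.

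Most other genes of the contractile list were not members. Of 43 actin, myosin and muscle contractile genes on a list, 21 had an OSC mean of at least 200. Of these 21, 4 were members, against 0.832% of all 5650 genes with such a mean. A further 1 was at 25% or less in Δ*l(3)mbt* OSCs only, 2 were so in fGS/OSS only, and 14 were above 25% in both. The 1 was *sls*, at 3971 normalized counts in OSCs and 361 in Δ*l(3)mbt* OSCs. The 2 were *bt*, at 420 in OSCs and 38.0 in fGS/OSS, and *Zasp52*, at 3510 and 424. *zip* and *sqh*, the heavy and regulatory light chains of non-muscle myosin, were at 16224 and 6109 normalized counts in OSCs and at 19533 and 7053 in Δ*l(3)mbt* OSCs. The troponin gene *up* was at 1.04 normalized counts in OSCs and the myosin light chain gene *Mlc1* at 0.904. The median of the 21 genes was 113% of OSC in Δ*l(3)mbt* OSCs and 97.2% in fGS/OSS.

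Channels, transporters and sensory receptors made up one set. *GluRIIB*, which encodes a subunit of the glutamate receptor of the larval neuromuscular junction, was at 2363, 589.6, 523 and 1596 normalized counts in the OSC libraries. Its level was 6.34, 15.6, 7.06 and 3.97 in Δ*l(3)mbt* OSCs and 3.83, 3.45, 6.92 and 2.09 in fGS/OSS, below 1% of the OSC mean in each. Replicates 1 and 4 were the high OSC libraries. *stj*, for an α2δ subunit of voltage-gated calcium channels, was at 245 ± 99.9 in OSCs (SD, n = 4) and kept 3.47% in Δ*l(3)mbt* OSCs and 0.638% in fGS/OSS. *ppk17*, of the DEG/ENaC sodium channel family, kept 14.8% and 0.536% of 240.5 ± 60.0. The ionotropic receptor gene *Ir40a*, known for humidity sensing in the antenna, was at 536, 304, 314 and 1202 in OSCs, with replicate 4 far above the others. It kept 6.47% and 2.48%. *Orct*, an organic cation transporter gene, was the member nearest to both ratio limits, with 1208 ± 108 normalized counts in OSCs, 267 ± 41.1 in Δ*l(3)mbt* OSCs and 261 ± 32.2 in fGS/OSS. *Esp*, of the sulphate transporter family, was at 516 ± 281 in OSCs and kept 4.42% and 14%.

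Secreted, matrix and cell surface proteins made up another set. *flz* encodes a serine protease known from tracheal development. Its OSC libraries were even, at 1050.1, 1151, 984 and 1027 normalized counts, while the Δ*l(3)mbt* libraries held 5.07, 5.20, 1.77 and 1.32 and the fGS/OSS libraries 4.79, 2.30, 1.98 and 1.05. This is 0.317% and 0.240% of the OSC mean. *Ppn* was at 768 ± 345 in OSCs and kept 8.83% in Δ*l(3)mbt* OSCs but 0.529% in fGS/OSS. *NetB*, a Netrin guidance ligand gene, was at 630.4 ± 103 in OSCs, 120.5 ± 15.4 in Δ*l(3)mbt* OSCs and 46.5 ± 5.35 in fGS/OSS (SD, n = 4). *dpr8*, an immunoglobulin surface protein gene, kept 12.7% and 0.865% of 505 ± 113, and *thw*, a zona pellucida domain gene, kept 3.19% and 0.656% of 293 ± 103. The serpin gene *Spn43Aa* was at 387 ± 67.5 in OSCs and kept 3.02% and 3.93%. *twit* and *CG9336* (named *bero* in RefSeq) encode small Ly6-type surface proteins and averaged 372 ± 112 and 1112 ± 249.8. *CG9336* was lower in Δ*l(3)mbt* OSCs, at 23.7 ± 6.90, than in fGS/OSS, at 88.8 ± 7.67, whereas *twit* was at 20.5 ± 12.8 and 9.79 ± 3.32.

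Signalling genes on the list act at several steps. *Cad96Ca* encodes a receptor tyrosine kinase known from wound healing of the epidermis, and it was at 225 ± 70.6 normalized counts in OSCs, 5.70 ± 1.86 in Δ*l(3)mbt* OSCs and 3.08 ± 0.750 in fGS/OSS. *Gfrl*, for a receptor related to those of glial cell line-derived neurotrophic factor, was at 423 ± 103 and had 5 reads over the 4 fGS/OSS libraries, with 2 of them at 0. *mthl9*, of the Methuselah-like family of G protein-coupled receptors, was at 979 ± 41.9, 29.3 ± 10.0 and 151 ± 8.65 in the same order of lines. *Epac*, which links cyclic AMP to the small GTPase Rap, was among the least reduced members, at 704 ± 162, 131 ± 13.2 and 143 ± 1.82. *Gyc88E*, an atypical soluble guanylyl cyclase gene, was at 666 ± 216, 24.2 ± 9.14 and 2.53 ± 1.66. *lft* and *Dlish* both act in Fat signalling, which sets growth and planar polarity. *lft* averaged 540 ± 353 in OSCs and *Dlish* 372 ± 100.2. *lft* kept 2.6% in Δ*l(3)mbt* OSCs and 7.28% in fGS/OSS, and *Dlish* kept 11.8% and 12.2%.

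Enzymes included the most abundant member. *Sirup*, an assembly factor of mitochondrial succinate dehydrogenase, lies on chromosome 2L from 7998869 to 7999676. It was at 15483, 11966, 11085 and 5509 normalized counts in OSCs, 743, 770.1, 523 and 667 in Δ*l(3)mbt* OSCs and 277, 327, 383 and 312 in fGS/OSS. Even the lowest OSC library, replicate 4, was more than 7 times above the highest library of the other lines. *Alp4*, an alkaline phosphatase gene, kept 10.7% in Δ*l(3)mbt* OSCs but 0.567% in fGS/OSS of 1232 ± 285. *bond*, a fatty acid elongase gene, was at 886, 815, 743 and 923 in OSCs, 7.61, 15.6, 23.8 and 27.8 in Δ*l(3)mbt* OSCs and 7.66, 26.5, 12.8 and 9.42 in fGS/OSS. *Gfat1*, for the enzyme that starts the hexosamine pathway, kept 11.8% and 2.91% of 254 ± 30.3, and the cytochrome P450 gene *Cyp12a5* kept 8.59% and 6.36%.

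Of 787 transcription factor and chromatin genes on a list, 433 had an OSC mean of at least 200 and 2 were members. *retn*, which encodes the ARID domain protein Dead ringer, was at 532, 592, 643 and 1369.7 normalized counts in the OSC libraries, with replicate 4 at more than 2 times any other. It had 3 reads over the 4 Δ*l(3)mbt* libraries and 11 over the 4 fGS/OSS libraries, with 1 library of each line at 0. *CG34031* was at 224 ± 42.0 in OSCs and kept 13.1% and 1.51%. No member was at 0 in all libraries of a line.

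Of the 47 members, 42 are protein coding and 5 are noncoding. *hpRNA:CR32205*, a hairpin RNA gene, was at 3310, 3543, 4351 and 2923 normalized counts in OSCs and kept 7.5% in Δ*l(3)mbt* OSCs and 6.96% in fGS/OSS, levels that overlapped. *lncRNA:roX1*, an RNA of the dosage compensation complex of males, was at 348 ± 70.0 in OSCs and kept 3.69% and 4.15%. *lncRNA:CR43431* kept 2.10% and 0.850% of 272 ± 33.7. *asRNA:CR45108*, which lies opposite *cn*, was at 346 ± 82.5 and kept 11.1% and 0.605%. *snoRNA:U3:9B*, a copy of the U3 small nucleolar RNA, was at 253 ± 95.1, 34.3 ± 15.2 and 17.6 ± 7.78. U3 copies are near identical, so reads may not be assigned to this copy alone. Genes named only by a CG number were among the abundant members. *CG44085* was at 3788, 1498, 1338 and 4230 in OSCs, *CG6231* at 1121 ± 156, *CG10680* at 1740, 485, 493 and 1219 and *CG8170* at 619.5 ± 113. *CG44085* kept 2.66% and 4.83%, *CG6231* kept 9.26% and 12.7%, and *CG10680* kept 0.535% and 0.603%. *twz*, a BTB domain gene, was at 774, 803, 727 and 1183 in OSCs and kept 3.29% and 4.32%. *CG42402*, *CG3097* and *CG43340* averaged 447 ± 59.5, 303 ± 55.0 and 284 ± 31.7 in OSCs, and each was under 20% of that in both lines.

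The residual levels of the Δ*l(3)mbt* OSC and fGS/OSS libraries overlapped for 18 members. For 21 members the 4 Δ*l(3)mbt* libraries lay above the 4 fGS/OSS libraries, and for 8 the order was the reverse. *Alp4*, *Ppn*, *dpr8*, *ppk17*, *asRNA:CR45108*, *Mf* and *Gyc88E* were among the 21, each under 1% of OSC in fGS/OSS. *CG44085*, *CG9336*, *mthl9*, *twz*, *CG8170*, *lft*, *Esp* and *CG43340* were the 8. These values share the OSC libraries and were all used in the selection. The same counts over other genes were not computed, so the split is no result about the members.

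Near the limits of the selection, the members with the lowest OSC means were *Cyp12a5* (212 normalized counts), *CG34031* (224) and *Cad96Ca* (225), and the genes just outside were *PH4alphaPV* (189), *CG18605* (186) and *CG40472* (170). By the Δ*l(3)mbt* ratio, *Orct* (22.1%), *NetB* (19.1%) and *Epac* (18.6%) were just inside, and *CG4752* (26.0%), *nAChRbeta2* (27.1%) and *kel* (28.1%) just outside. By the fGS/OSS ratio, *Orct* (21.6%), *Epac* (20.3%) and *mthl9* (15.4%) were inside, and *ImpL2* (30.6%), *zormin* (33.3%) and *Spn27A* (47.4%) outside. *kel*, which encodes the ring canal protein Kelch, had an OSC mean of 8073 normalized counts and *zormin*, a muscle Z-disc gene, one of 8294.

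Some members lay near each other on the chromosomes, but how often other genes expressed in OSCs do so was not computed. The 47 genes lay on chromosome arms 2L (10), 2R (11), 3L (7), 3R (14) and X (5) of assembly BDGP6, and 12 of them formed 6 pairs whose gene bodies were at most 50 kb apart, a distance chosen after the data were seen. *Mf* (3R, 15170625 to 15181510, minus strand) lies within *Gyc88E* (15150375 to 15191242, plus strand). Reads were counted by strand, and the highest OSC library of *Mf* was replicate 1 (1038 normalized counts) while that of *Gyc88E* was replicate 2 (882). Around them, *CG42542* was at 678 normalized counts in OSCs and 2968 in Δ*l(3)mbt* OSCs, and *Spn88Ea* at 1684 and 6112. *ppk17* (2L, 16758184 to 16760554, minus strand) lies 6.01 kb from *Mhc* (16766566 to 16788766, plus strand), and no annotated gene lies between them. The flanking genes *BuGZ* and *Cse1* were at 115% and 97.3% of OSC in Δ*l(3)mbt* OSCs. *CG32206* and *hpRNA:CR32205*, both on the minus strand of 3L, are 7.48 kb apart. *CG32206* was at 297 ± 148 normalized counts in OSCs and kept 5.53% and 0.531%. *CG42402* and *Gfat1* on 3R (22.1 kb, 2 annotated genes between them) and *flz* and *CG8170* on 2R (33.1 kb, 3 genes between them) were further apart, and *Np*, *CG8172* and *CG13744* between the latter were each under 1 normalized count in OSCs.

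The Ly6 genes lay beside other genes that were low in Δ*l(3)mbt* OSCs. *twit*, on chromosome 2L from 20852578 to 20857113, and *CG9336*, from 20858695 to 20861014, are 1.58 kb apart on the same strand. *CG31676*, 3.40 kb before *twit*, was at 9082 normalized counts in OSCs and 580 in Δ*l(3)mbt* OSCs, but at 9276 in fGS/OSS. *Oseg5*, an intraflagellar transport gene, was at 1816, 153 and 1686 in the same order. *CG9338*, beyond *CG9336*, was at 1357, 474 and 88.1. *CG31676* and *Oseg5* were thus low in Δ*l(3)mbt* OSCs and kept in fGS/OSS, while *CG9338* was lower in fGS/OSS. Other genes of this neighbourhood varied. *CG9331* was at 24.2% of OSC in Δ*l(3)mbt* OSCs, but *CG31673* was at 55.5%, *CG31674* at 62.3% and *sky* at 88.75%. *CG14400*, which overlaps *twit*, was at 17.3 normalized counts in OSCs and 31.85 in Δ*l(3)mbt* OSCs. No test was made since the selection used these libraries.

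**Figure D2:**
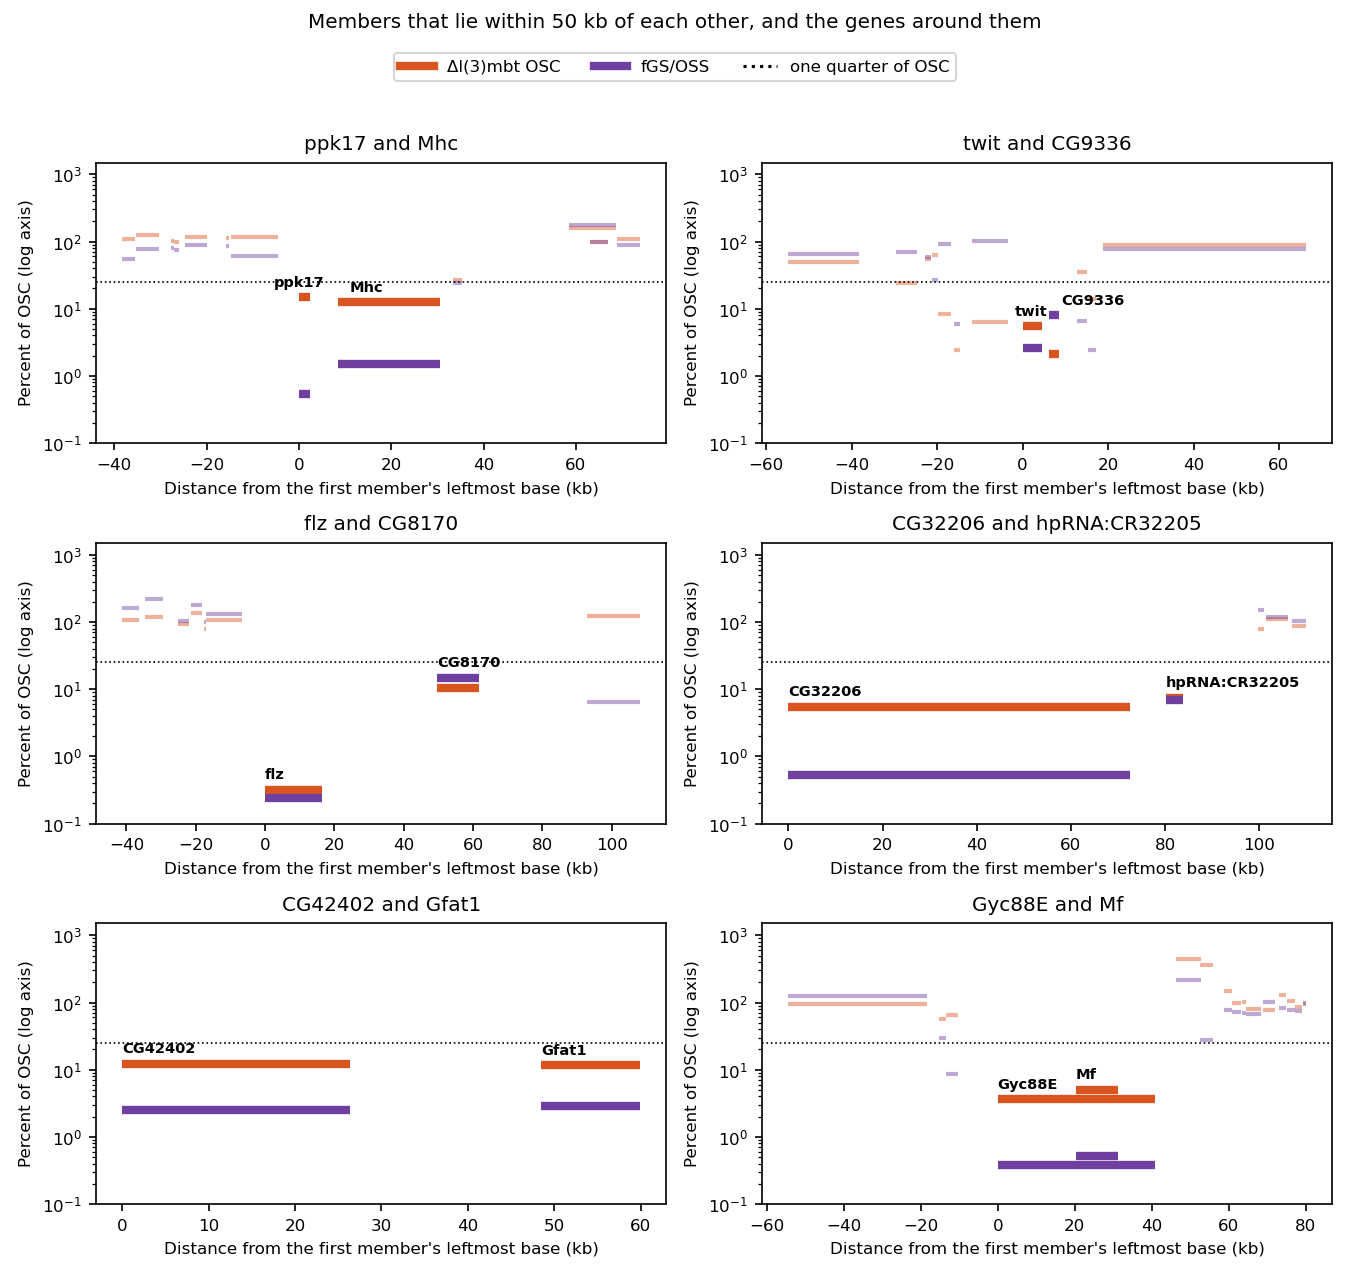
Level in Δ*l(3)mbt* OSCs (orange) and fGS/OSS (purple) as percent of the OSC mean (log axis) along 6 chromosome regions, in kb from the leftmost base of the first member, for genes with an OSC mean of at least 20 normalized counts. Thick bars are members, thin bars other genes, the dotted line is 25% of OSC, and the members lie below genes such as *BuGZ* at 115%.

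The empty-vector libraries are separate samples of the same 2 OSC lines with another RNA selection, so they show the members in samples that the selection did not use. The 2 lines stand in tables that were normalized apart, so levels are given as RPM, reads per 1000000 counted reads, side by side and without a test. The members were selected on the contrast of these same lines, which favours low levels in Δ*l(3)mbt* OSCs here too. The filter on low values took the mean over both groups (at least 2 normalized counts), so a member could pass on its OSC level alone. Of the 46 members that passed this filter, 41 were at 25% or less in Δ*l(3)mbt* OSCs. The same held for 3.10% of all 8944 genes and for 1.26% of the 5639 genes among them with an OSC mean of at least 200. The median member was at 6.36% of OSC, against 98.4% over all genes. The empty-vector groups did not overlap for any of the 46, but the share of all genes without overlap was not computed. The 3 Δ*l(3)mbt* libraries include replicate 3 with 1.63 M counted reads, and the count was 40 or 41 whichever library was left out.

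*Act57B* was at 869, 954 and 1042 RPM in empty-vector OSCs and 1.49, 2.06 and 2.45 in empty-vector Δ*l(3)mbt* OSCs, or 0.209%. *Sirup* was at 938, 973 and 1095 and 88.0, 78.8 and 69.8. *GluRIIB* had 114 ± 5.80 RPM in OSCs (SD, n = 3) and 4 reads over the 3 Δ*l(3)mbt* libraries. Each of *retn* and *CG10680* had 2 reads there, against 28.4 ± 2.65 and 86.7 ± 3.56 RPM in OSCs. The 5 members above 25% were *Prm* (42.2%), *CG5955* (37.2%), *CG3097* (36.7%), *asRNA:CR45108* (34.7%) and *Orct* (29.2%). *Prm* was at 84.2, 84.2 and 79.8 in OSCs and 29.2, 35.6 and 39.8 in Δ*l(3)mbt* OSCs, so it stayed lower in each library. *snoRNA:U3:9B* had at most 0.131 RPM in any of these libraries of poly(A) RNA and was not counted.

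**Figure D3:**
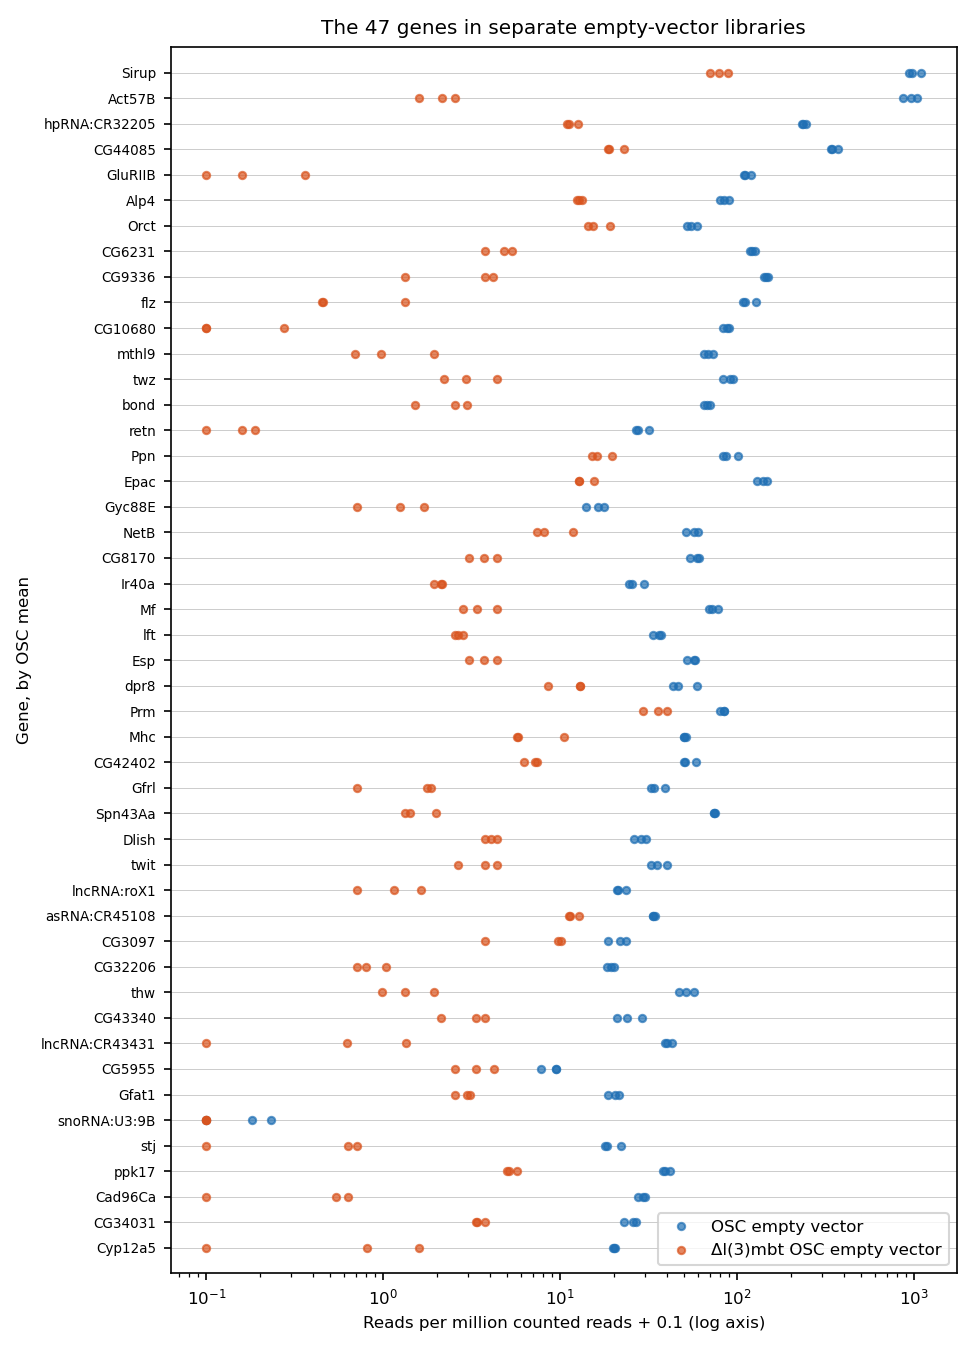
RPM (reads per 1000000 counted reads) plus 0.1 (log axis) of the 47 members in 3 OSC (blue) and 3 Δ*l(3)mbt* OSC (orange) empty-vector libraries, 1 point per library. For all but *snoRNA:U3:9B* the orange points lie left of the blue points, with *Prm* and *CG5955* among the closest.

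The *ovo-FLAG* libraries ask whether Ovo alone moves these genes in wild-type OSCs within 48 h. *ovo* reads, which include those of the plasmid and so do not measure the endogenous gene alone, were at 9.49 ± 2.11 normalized counts (SD, n = 3) in empty-vector libraries and at 649 ± 45 after *ovo-FLAG*. Of the 46 members tested, 5 fell and 2 rose in limma, which was run on log2-transformed counts with 1 added, at thresholds of 0.6 for the size of the log2 fold change and 0.1 for the adjusted p. Over all 9025 genes tested, 1.17% fell and 8.78% rose. The median log2 fold change was -0.05 for the members and -0.01 for all genes. With no fold threshold and an adjusted p under 0.05 instead, 15 members fell and 4 rose, against 928 and 1194 of all 9025 genes.

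*NetB* fell most, from 342, 304 and 363 normalized counts with the empty vector to 147, 135 and 172 with *ovo-FLAG* (limma log2 fold change of -1.15 with a standard error of 0.11 and an adjusted p of 2.0e-07 from limma). *Alp4* went from 534, 479 and 511 to 302, 257 and 272 (limma log2 fold change of -0.88 with a standard error of 0.08 and an adjusted p of 2.9e-07). *Sirup* fell from 5618, 5805 and 6637 to 3484, 4239 and 3514 (log2 fold change -0.69, standard error 0.07). The groups did not overlap for these genes. *flz* (-0.63) and *lncRNA:roX1* (-0.67) were the other members that fell. Leaving out empty-vector replicate 3 or *ovo-FLAG* replicate 3 brought *flz* inside the fold threshold (-0.55 and -0.57), and leaving out *ovo-FLAG* replicate 2 did so for *lncRNA:roX1* (-0.47).

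*Prm* rose from 504, 502 and 484 to 852, 832 and 838 normalized counts (limma log2 fold change of 0.76 with a standard error of 0.06 and an adjusted p of 5.2e-08 from limma), and *thw* from 281, 303 and 346 to 528, 529 and 557 (log2 fold change 0.80, standard error 0.08). Again the groups did not overlap. Of the 5 members that were under 1% of OSC in Δ*l(3)mbt* OSCs, *flz* fell with *ovo-FLAG* in OSCs, as given above, and the other 4 were not called. *Act57B* was at 4554 ± 85.8 against 5737 ± 557 (log2 fold change -0.33, standard error 0.06), *GluRIIB* at 727 ± 42.0 against 682 ± 40.3 (0.09, standard error 0.07), *retn* at 191 ± 15.6 against 170.5 ± 14.8 (0.16, standard error 0.11) and *CG10680* at 489.7 ± 24.4 against 520.5 ± 17.8 (-0.09, standard error 0.07). *Act57B* had an adjusted p of 5.7e-04 in limma with a change inside the fold threshold.

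In Δ*l(3)mbt* OSCs, where the members were already low, 12 of the 43 members tested rose after *ovo-FLAG* and 3 fell at the same thresholds in limma, whereas 5 rose and 5 fell when the libraries were quantile normalized. Of all 9290 genes tested, 9.43% rose and 2.53% fell. The *ovo* count, plasmid reads included, averaged 952 ± 73.7 in empty-vector and 2398 ± 146 in *ovo-FLAG* libraries (SD, n = 3). The median log2 fold change was 0.39 for the members and 0.03 for all genes. *GluRIIB*, *CG10680*, *retn* and *snoRNA:U3:9B* were under the limit of 2 normalized counts and were not tested.

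*CG43340*, which RefSeq names *M7BP*, rose from 12.5, 20 and 22.7 normalized counts to 81.1, 72.1 and 100.2 (limma log2 fold change of 2.17 with a standard error of 0.24 and an adjusted p of 1.0e-06 from limma). This is still below its 125, 141 and 175 in empty-vector OSCs, a level set by another table. *Mhc* rose from 34.7, 34.9 and 64.4 to 134, 119 and 117 (limma log2 fold change of 1.51 with a standard error of 0.20 and an adjusted p of 1.7e-05), with empty-vector replicate 3, the shallow library, the highest of its group. *Esp* rose from 22.2, 18.2 and 26.5 to 54.5, 53.5 and 52.8 (log2 fold change 1.25, standard error 0.22), *CG44085* from 124 ± 14.4 to 237 ± 36.4 (0.93) and *CG8170* from 22.3 ± 4.16 to 43.4 ± 4.84 (0.94). The groups did not overlap for these 5 genes. The other members that rose were *stj*, *Gfrl*, *CG3097*, *thw*, *Gfat1*, *twz* and *ppk17*, with log2 fold changes of 0.69 to 1.87. Without the shallow empty-vector replicate 3, *stj* went from 1.87 to 1.14, *Gfrl* from 1.26 to 0.84 and *CG3097* from 1.20 to 0.74. *Gfat1* (0.87) and *ppk17* (0.66) moved little, while *thw* went up to 1.42 and *twz* to 0.96. *twz* was the nearest to the threshold (adjusted p = 0.071 from limma) and was not called when any one library other than empty-vector replicate 3 was left out. *thw* was not called without *ovo-FLAG* replicate 1 or 2, nor *stj* without *ovo-FLAG* replicate 1.

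*Prm* fell in this line, from 181, 220.3 and 246 to 124, 116 and 114 normalized counts (limma log2 fold change of -0.85 with a standard error of 0.12 and an adjusted p of 1.7e-05 from limma), with no overlap. *Orct* went from 87.8, 93.4 and 117 to 60.1, 63.8 and 52.0 (log2 fold change -0.75, standard error 0.16) and *Ppn* from 93.2, 98.9 and 121 to 78.3, 64.9 and 51.3 (-0.69, standard error 0.17). *Ppn* missed the fold threshold without empty-vector replicate 3 (-0.58) or *ovo-FLAG* replicate 3 (-0.54). *Sirup*, the most abundant member, had a log2 fold change of -0.57 (standard error 0.09), short of the fold threshold.

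The effect of *ovo-FLAG* differed between the lines for 16 of 43 members (limma, difference of the 2 log2 fold changes over 12 libraries, adjusted p under 0.05), against 9.64% of all 8706 genes. In 15 of these the effect was more positive in Δ*l(3)mbt* OSCs and in 1 more negative. The median difference was 0.48 for the members and 0.01 for all genes. The members were selected as high in OSCs and low in Δ*l(3)mbt* OSCs, which may favour this direction. Genes equally low in Δ*l(3)mbt* OSCs were not compared. *Prm* was the exception, with a log2 fold change of 0.76 in OSCs and -0.85 in Δ*l(3)mbt* OSCs (difference -1.61, standard error 0.13, adjusted p = 3.2e-09). *CG43340* had 0.32 and 2.17 (difference 1.85, standard error 0.27, adjusted p = 3.3e-05). *Alp4* changed by -0.88 and 0.12, and *NetB* -1.15 and 0.04, so both fell in OSCs and were not called in the other line. The calls of *Gfrl*, *bond*, *lncRNA:roX1*, *stj* and *ppk17* were each lost when some single library was left out, with 11 to 16 members called over these fits. With quantile normalization 11 members were called, 10 of them shared, and *Gfrl*, *bond*, *lncRNA:roX1*, *ppk17*, *mthl9* (0.88) and *CG8170* (0.51) were not. The differences of *Esp* (1.10), *CG44085* (0.78), *Mhc* (1.29) and *CG6231* (0.99) had adjusted p-values of 2.3e-04 to 0.0010 in limma. The 2 lines reached different *ovo* levels and started from different ones, which cannot be told apart from the line itself.

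**Figure D4:**
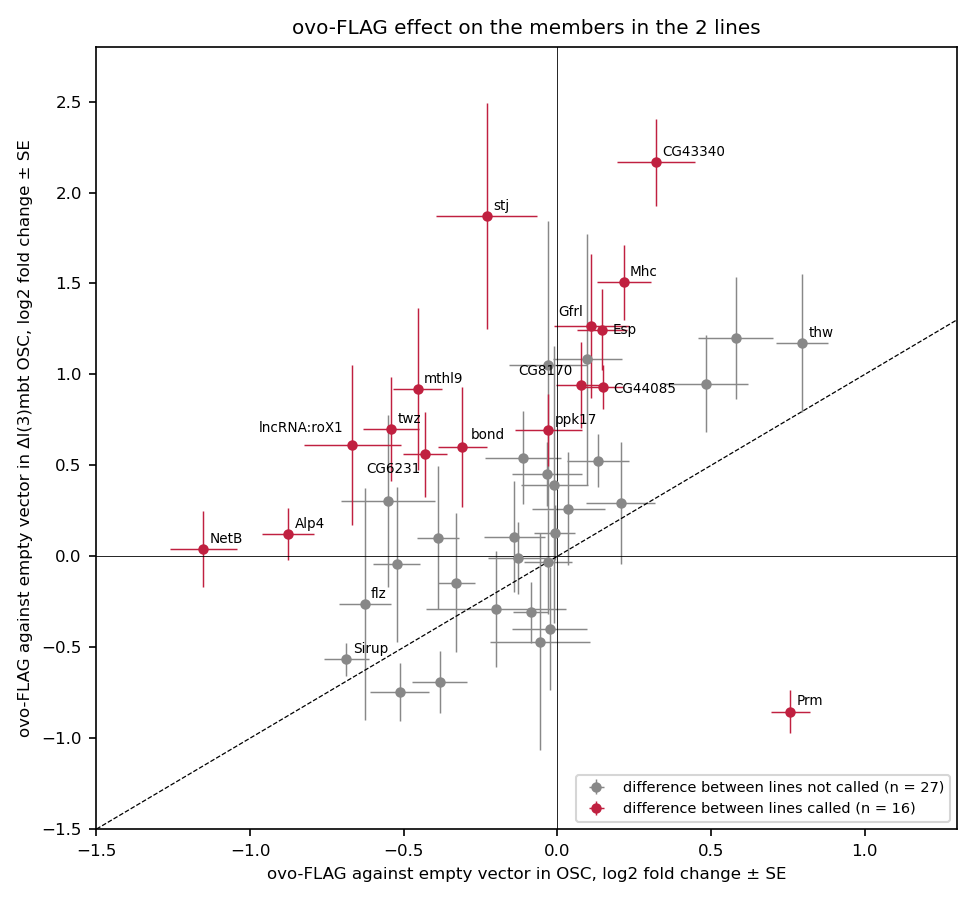
Log2 fold change with *ovo-FLAG* against the empty vector in OSCs (x axis) and in Δ*l(3)mbt* OSCs (y axis) for the 43 members tested in both, with standard errors from limma and the line of equal effects (dashed). The 16 members whose effects differed are red, and 15 of them, all but *Prm*, lie above the line.

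Sorted ovarian cells gave the level of these genes in the fly. In GFP-negative somatic cells 23 of 47 members averaged 10 or more normalized counts, in GFP-positive germline cells 30 did, and 16 were under 10 in both. The same counts over other genes were not computed, so these are no result about the members. The GFP-positive libraries were also shallower, with 3.24 to 6.20 M counted reads against 8.39 to 13.1 M. Of the 46 tested with limma, 7 were lower and 3 higher in germline cells, at thresholds of 1 for the log2 fold change and 0.01 for the adjusted p. Of all 10481 genes tested, 7.99% were lower and 7.04% higher. The median log2 fold change was 0.19 for the members and -0.07 for all genes.

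The strongest somatic member was *bond*, at 882, 985 and 883 normalized counts in GFP-negative and 6.95, 13 and 21.6 in GFP-positive cells (limma log2 fold change of -6.07 with a standard error of 0.39 and an adjusted p of 2.0e-05 from limma). *Esp* was at 1971, 2003 and 2085 and 455, 562 and 538 (log2 fold change -1.97, standard error 0.11). *Alp4* was at 303, 297 and 381 and 27.8, 24.2 and 34.3 (-3.47, standard error 0.28). *mthl9* (-3.09), *Mhc* (-1.66), *CG9336* (-1.84) and *Ppn* (-2.88) were also lower in germline cells, and for all 7 the groups did not overlap. The calls of *mthl9*, *Mhc*, *CG9336* and *Ppn* were lost without any one GFP-negative replicate (3 members called each time), with log2 fold changes that stayed below -1.6.

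*retn* had the opposite pattern, with 12.5, 13.6 and 16.0 normalized counts in somatic and 593, 474 and 668 in germline cells (limma log2 fold change of 5.26 with a standard error of 0.28 and an adjusted p of 7.6e-06 from limma). *CG3097* was at 1.19, 1.70 and 1.89 and 80.0, 39.1 and 106 (log2 fold change 4.77, standard error 0.70) and *hpRNA:CR32205* at 45.8, 34.0 and 41.5 and 268, 170.2 and 126 (2.13, standard error 0.36). All 3 were without overlap. The call of *hpRNA:CR32205* was lost without any one GFP-negative replicate. Without GFP-positive replicate 3 the count of members higher in germline cells was 5, as with quantile normalization, and with DESeq2 it was 7.

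Several abundant members of the cultured line were low in both sorted populations. *Act57B*, with a mean of 5663 normalized counts in OSCs, was at 75.5, 45.1 and 74.5 in GFP-negative and 44.0, 79.0 and 68.6 in GFP-positive cells (limma log2 fold change of -0.03 with a standard error of 0.40 and an adjusted p of 0.96). *GluRIIB* was at 3.78 ± 1.89 and 19.4 ± 8.43 (SD, n = 3), *flz* at 2.67 ± 2.36 and 14.7 ± 2.45, and *Gfrl* at 1.17 ± 1.29 and 3.49 ± 3.30. The sorted cells and the cell lines were normalized apart, so these levels are set side by side only. The 7 muscle markers summed to 692 to 778 normalized counts in GFP-negative and 671 to 876 in GFP-positive cells, so the sums overlapped. The GFP-negative and GFP-positive means were 51.9 and 3.32 for *up*, 50.4 and 16.0 for *Mlc2*, 26.6 and 2.48 for *wupA* and 7.60 and 1.55 for *Mlc1*. *Mef2* had the opposite order, with 299 and 627, and *Act57B* was level. How much muscle of the ovarian sheath adds to *Mhc*, *Mf* and *Prm* in GFP-negative cells was not tested.

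**Figure D5:**
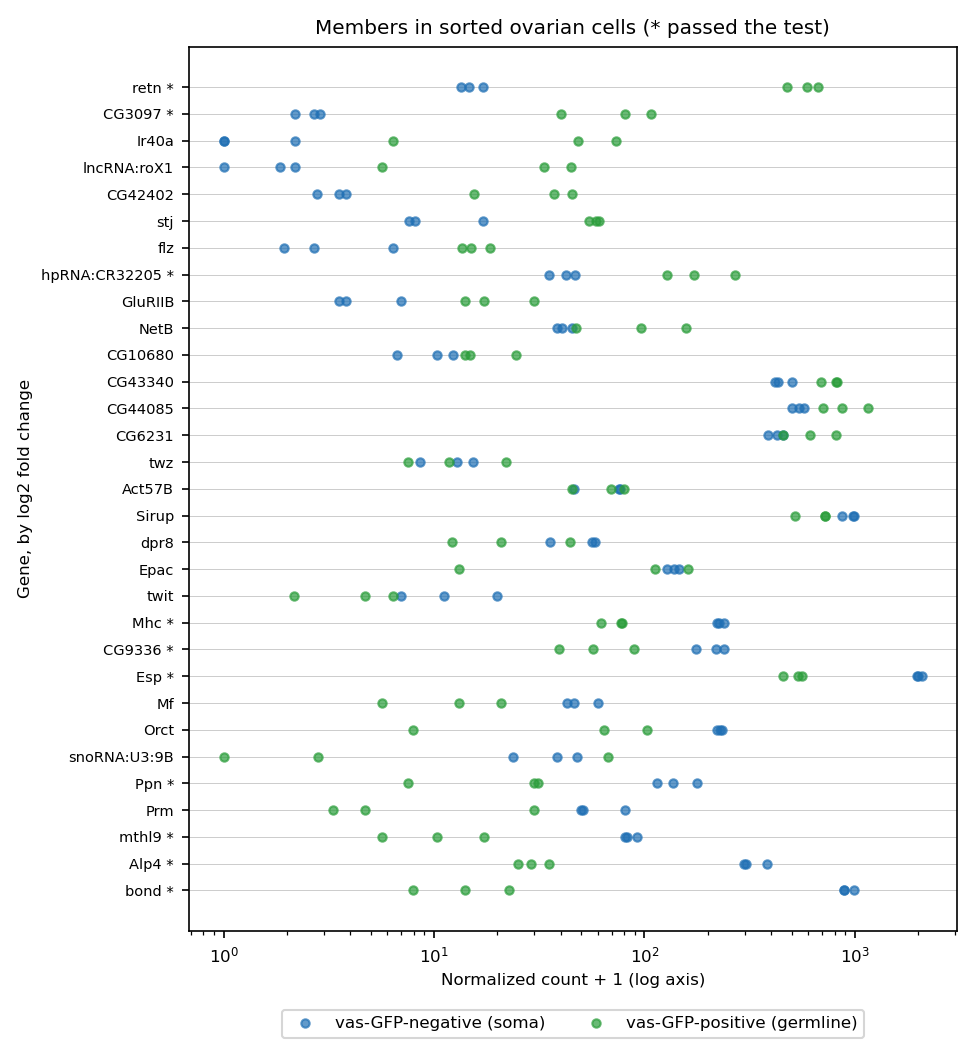
Normalized counts plus 1 (log axis) of the 31 members that averaged 10 or more in either sorted population, in 3 GFP-negative (blue) and 3 GFP-positive (green) samples. From top to bottom the genes go from higher in germline cells, led by *retn*, to higher in somatic cells, ending with *bond*, and asterisks mark the 10 members that passed the test.

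The members were 0.832% of the 5650 genes, and the lists are read against that share, so the absence of members from short lists is no result about them. Of 89 ion channel, transporter and neurotransmission genes, 24 reached 200 in OSCs and 2 were members, *GluRIIB* and *stj*. In OSCs 9 of the 60 tested genes of that list rose with *ovo-FLAG* and 2 fell, against 8.78% and 1.17% of all genes. The axon guidance list gave *NetB* as its member, and 3 of its 29 tested genes fell and 3 rose in OSCs, against the same shares of all genes. Of 111 adhesion genes, 42 reached 200 normalized counts in OSCs and *dpr8* and *Cad96Ca* were members. The matrix list gave *Ppn* and the list of follicle cell and somatic gonad identity gave *bond*, 1 of its 17 genes with an OSC mean of at least 200, of which 14 were above 25% in both lines. No member was on the lists of Notch, JAK/STAT, EGFR/ERK, Hedgehog, BMP and Wnt, Hox, ecdysone, immune, haemocyte, fat body, neuronal or germline genes.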

How the data were processed

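Normalized gene tables of 30 libraries were used. According to the methods, adapters were removed by the authors (cutadapt 1.18), alignment to BDGP6 used STAR 2.7.3a, and stranded counting over Ensembl genes used featureCounts (Subread 1.5.3). The deposited signal values are counts per gene divided by DESeq2 1.30.1 size factors, set within each of 4 tables: the 3 lines, nucleofected OSCs, nucleofected Δ*l(3)mbt* OSCs and sorted cells. The values were whole multiples of 1 read for 100% of entries within a tolerance of 0.01, so counted reads could be recovered. The authors' own fold changes were not used.

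Log2 of the normalized count plus 1 was tested with limma 3.58.1 (R 4.3.3, trend and robust options, two-sided, no replicate block) over all genes averaging 2 or more normalized counts in the libraries compared, with Benjamini-Hochberg adjustment over all of them. For low genes, log2 fold changes on that scale departed from those of edgeR in either direction. In Δ*l(3)mbt* OSCs with *ovo-FLAG*, *stj* had 1.87 in limma and 1.47 in edgeR, and *thw* had 1.17 and 1.52. The difference between lines was called at an adjusted p under 0.05. edgeR 4.0.16 on the recovered reads called 92 genes lower and 851 higher with *ovo-FLAG* in OSCs, 264 and 991 in Δ*l(3)mbt* OSCs, and 777 lower and 671 higher in germline cells, and DESeq2 1.42.0 was a further alternative. Other alternatives were an added 5, a minimum of 10 or none, TMM scaling, quantile normalization, a replicate block and each library left out. The limma step was tested on simulated counts.

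The members, gene lists and tests were chosen with earlier results of these data known. Members were described by their roles, levels and calls, by the limits of the selection and by position. Genes outside the list beside those neighbours were chosen after their values were seen. The same holds for *zip*, *sqh*, *up*, *Mlc1*, *sls*, *bt* and *Zasp52* where OSC levels are given. Gene positions come from the Ensembl annotation of BDGP6, where 44 members matched by name and 3 through a RefSeq synonym. The paper describes the replicates as distinct samples, without saying whether these were separate cultures or pools of flies. The p-values thus measure the spread between these samples, which may be technical. Counts per library vary, and their number limits precision. Replicate pairs differed by more than counting noise (chi-square per degree of freedom of 1.52 to 83.1 over 36 pairs).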

Additional observations from a re-analysis of the deposited data

Results flagged for a closer look

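Among the members, 7 of 141 groups of 4 libraries in the 3 lines held a library far from the others, where chance gives about 1 in 20. Replicate 4 of OSCs stood low for *Alp4* (804.9 normalized counts, others 1364 to 1384) and high for *twz* (1183.1, others 727 to 803) and for *retn* (1369.7, others 532 to 643). Replicate 1 of OSCs stood low for *CG8170* (452.3, others 660 to 699) and *twit* (204.9, others 415 to 444) and high for *Cyp12a5* (336.5, others 164 to 174). In Δ*l(3)mbt* OSCs, replicate 4 stood high for *twit* (39.69, others 13.53 to 15.01).

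The effect of *ovo-FLAG* (log2 fold change, Δ*l(3)mbt* OSCs minus OSCs, limma) differed between the lines for 16 members. The difference was -1.612 for *Prm*, which rose in one line and fell in the other. It was positive for *stj* (2.101), *CG43340* (1.846), *mthl9* (1.374), *Mhc* (1.29), *lncRNA:roX1* (1.279), *twz* (1.242), *NetB* (1.193), *Gfrl* (1.154) and *Esp* (1.099). It was also positive for *Alp4* (0.999), *CG6231* (0.993), *bond* (0.909), *CG8170* (0.863), *CG44085* (0.783) and *ppk17* (0.724).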

How the results depend on the processing

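With a minimum of 400 normalized counts in OSCs the selection gave 29 genes, all of them members, and with single libraries left out it gave 44 to 48. Without a fold threshold (adjusted p under 0.05), *ovo-FLAG* lowered 15 and raised 4 members in OSCs, and 9 members were higher in germline cells. At that setting 928 of all 9025 genes fell and 1194 rose in OSCs, and 1673 of 10481 were higher in germline cells. With quantile normalization, 5 members fell and 5 rose in Δ*l(3)mbt* OSCs, 7 were lower and 5 higher in germline cells, and 11 differed between the lines, of which 10 were shared. That scaling also moved the counts over all genes, to 385 lower and 551 higher in OSCs and 565 and 607 in Δ*l(3)mbt* OSCs. DESeq2 called 7 members higher in germline cells. The causes of these shifts were not tested, apart from the thresholds themselves. Leaving out single libraries gave 3 to 8 members lower and 2 to 5 higher in germline cells, 4 to 7 lower and 2 to 3 higher with *ovo-FLAG* in OSCs, 2 to 4 lower and 9 to 14 higher in Δ*l(3)mbt* OSCs, 11 to 16 different between the lines and 40 to 41 at 25% or less in the empty-vector libraries. No direction reversed under any alternative run for the members called in the main tests. Directions of members not called were not checked. Whether replicate numbers pair the samples was not settled. Deviations of same-numbered libraries correlated at 0.0519 to 0.205 in OSCs, where each library matched its own number best, and at -0.0192 to 0.037 elsewhere. With the replicate block the counts were 5 lower and 2 higher in OSCs, 3 and 12 in Δ*l(3)mbt* OSCs, 6 and 3 in sorted cells and 16 for the difference. Over all 8706 genes the difference was called for 1066 with the block and 839 without it. The search of promoters for Ovo motifs was not run. Depth limits the members with few reads in Δ*l(3)mbt* OSCs, where *GluRIIB*, *CG10680*, *retn* and *snoRNA:U3:9B* could not be tested.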
